A study of Mus musculus with 18 samples.

Results

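The genes described here are 10 costimulatory receptors and ligands of T lymphocytes: Cd28, Icos, Cd27, Tnfrsf4, Tnfrsf9, Tnfrsf18, Tnfrsf25, Cd40lg, Tnfsf11 and Tnfsf14. They were chosen as a functional group, with earlier results of these data known, and were taken by symbol from the count table. They are 10 of the 15582 genes that had reads. All 10 were among the 11118 genes tested. Cd28 and Icos encode receptors of the CD28 family, Cd27, Tnfrsf4 (OX40), Tnfrsf9 (4-1BB), Tnfrsf18 (GITR) and Tnfrsf25 (DR3) encode receptors of the tumour necrosis factor (TNF) receptor family, and Cd40lg (CD40 ligand), Tnfsf11 (RANKL) and Tnfsf14 (LIGHT) encode ligands of the TNF family.

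Costimulatory receptors add a signal to that of the T cell receptor (TCR). CD28 and ICOS bind B7 family proteins on antigen-presenting cells and recruit phosphoinositide 3-kinase (PI3K), whereas receptors of the TNF receptor family bind TRAF adaptors and activate NF-κB. The ligands act in the other direction, from the T cell on its neighbours: CD40 ligand activates B cells and dendritic cells through CD40, RANKL acts through RANK in osteoclast formation and in the maturation of medullary epithelium in the thymus, and LIGHT binds HVEM and the lymphotoxin β receptor.

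RNA-seq was performed on thymic iNKT cells (invariant natural killer T cells) of WT and SKG mice on the BALB/c background. SKG mice carry a spontaneous point mutation in an SH2 domain of Zap70, whose kinase acts just downstream of the TCR, and the allele is hypomorphic. The WT and SKG mice were bred separately from offspring of a cross between BALB/cJ and SKG mice. All cells bound the CD1d tetramer loaded with α-galactosylceramide (αGC), and the 3 subsets were separated by surface proteins: NKT1 cells were ICOS-lo and CD49a+, NKT2 cells were CD49a- and Sdc-1- with high ICOS, CD4 and TCRβ, and NKT17 cells were CD49a-, ICOS-hi and Sdc-1+. The 6 groups were thus WT NKT1, SKG NKT1, WT NKT2, SKG NKT2, WT NKT17 and SKG NKT17, with 3 libraries each (18 libraries). ICOS protein was part of the gate, so differences in Icos mRNA between subsets are given as a description of the sort. The labels name neither the age of the mice nor the animals behind a library, so p-values measure the spread between these libraries. In bulk RNA, a lower level in all cells and a smaller share of expressing cells cannot be told apart.

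The libraries held 4391029 to 8895917 counts. Levels are given as CPM, counts divided by the TMM-scaled library size, as mean ± SD with n = 3 unless a library is named. A gene was called when edgeR's quasi-likelihood test gave an adjusted p under 0.1 for a fold of 1.5 or more in either direction. Marker genes of the subsets were summed, and the sums partly describe the sort. Sdc1 in the NKT17 list and Itga1 (CD49a) in the NKT1 list encode proteins of the gates. The summed level of 5 NKT17 marker genes was 1526 to 1605 CPM in WT NKT17 and 1723 to 1739 CPM in SKG NKT17. In NKT2 it was 1.05 to 5.52 CPM in WT and 2.25 to 4.50 CPM in SKG. The summed level of 6 NKT1 marker genes was 4556 to 5106 CPM in WT NKT1 and 3818 to 4200.2 CPM in SKG NKT1, and at most 406 CPM in any library of the other subsets.

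Some members lie on the same chromosome. On build NCBIM37, Tnfrsf4 (chr4:155387952-155390721) and Tnfrsf18 (chr4:155400273-155403004) lie in tandem on the plus strand of chromosome 4, 9551 bases apart. Tnfrsf9 (chr4:150288671-150320211) and Tnfrsf25 (chr4:151490043-151494228) are on the same chromosome and strand. Cd28 (chr1:60773644-60830203) and Icos (chr1:61034771-61057164) are both on the plus strand of chromosome 1, 204567 bases apart. Cd27 (chr6:125182640-125187028), Tnfsf11 (chr14:78677252-78707850) and Tnfsf14 (chr17:57328915-57333612) are on the minus strand, and Cd40lg (chrX:54465320-54477219) is on the plus strand of the X chromosome. Of the 10 genes, only Tnfrsf18 shares annotated exon bases with another gene, 414 of 1524 with Gm16008 on the opposite strand, and whether reads were counted by strand is not given, so its counts may hold reads of that gene.

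The 250 bases before the annotated start were read from RefSeq promoters on GRCm38.p6 for 7 of the 10 members, with 9 windows in all. Those of the 3 members with the largest differences between SKG and WT are shown, in the direction of transcription, for Tnfsf11 (chr14:78308044-78308293, minus strand), the first of 2 starts of Tnfrsf9 (chr4:150919905-150920154, plus strand) and the first of 2 starts of Tnfrsf25 (chr4:152115684-152115933, plus strand). Capitals mark matches, on either strand, to letters that TCR-induced transcription factors are known to bind: TGGAAA for NFAT, TGANTCA for AP-1, GTGGGNG for Egr and the κB consensus for NF-κB.
Tnfsf11: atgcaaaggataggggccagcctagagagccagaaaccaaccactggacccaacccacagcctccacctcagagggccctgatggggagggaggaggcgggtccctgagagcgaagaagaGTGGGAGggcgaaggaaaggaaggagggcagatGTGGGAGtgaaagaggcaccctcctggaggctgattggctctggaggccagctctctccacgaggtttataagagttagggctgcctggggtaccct
Tnfrsf9: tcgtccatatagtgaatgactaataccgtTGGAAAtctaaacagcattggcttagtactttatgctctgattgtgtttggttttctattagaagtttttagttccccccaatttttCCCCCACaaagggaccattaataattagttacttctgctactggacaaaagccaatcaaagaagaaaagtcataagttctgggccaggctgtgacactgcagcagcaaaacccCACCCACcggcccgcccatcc
Tnfrsf25: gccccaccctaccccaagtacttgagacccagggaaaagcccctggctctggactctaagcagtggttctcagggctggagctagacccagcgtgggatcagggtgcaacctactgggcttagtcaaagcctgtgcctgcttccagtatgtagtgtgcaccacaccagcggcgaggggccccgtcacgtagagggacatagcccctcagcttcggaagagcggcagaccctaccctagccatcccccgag
The Tnfsf11 window held 2 Egr matches, which began 130 and 97 bases before the start. The Tnfrsf9 window held 1 NFAT match, 221 bases before the start, and Egr matches at 134 and 21 bases. The Tnfrsf25 window held none of the 4 motifs, and the windows of the second starts of Tnfrsf9 and Tnfrsf25, not shown, held the κB consensus. Over the 9 member windows, 3 held the NFAT letters, 2 the AP-1 letters, 2 the Egr letters and 2 the κB consensus, while a narrower κB spelling, searched first, was in 0 of the 9. Among all 32536 windows of this length, 18.6% held the NFAT letters, 6.73% the AP-1 letters, 28.1% the Egr letters, 7.28% the κB consensus and 1.21% its narrower spelling. A match is a run of letters and was not tested as a binding site.

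Per exon length, as RPKM, Cd40lg was the most abundant of the 10 transcripts in WT NKT1 (196 RPKM), SKG NKT1 (197 RPKM) and SKG NKT2 (283 RPKM). Icos was the most abundant in WT NKT2 (323 RPKM), WT NKT17 (273 RPKM) and SKG NKT17 (283 RPKM). The second most abundant was Tnfrsf18 in both NKT1 groups, Cd27 in WT NKT2, Icos in SKG NKT2 and Cd40lg in both NKT17 groups. The least abundant were Tnfsf11 in WT NKT1 (0.840 RPKM), Tnfrsf4 in SKG NKT1 and in both NKT17 groups (0.584 to 0.877 RPKM), Tnfrsf25 in WT NKT2 (3.27 RPKM) and Tnfsf14 in SKG NKT2 (2.55 RPKM). Tnfrsf25 was thus the last of the 10 genes in WT NKT2 and the sixth in SKG NKT2, at 23.8 RPKM, and Tnfsf11 went from the sixth place in WT NKT2 (43.2 RPKM) to the ninth in SKG NKT2 (7.11 RPKM).

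**Figure D1:**
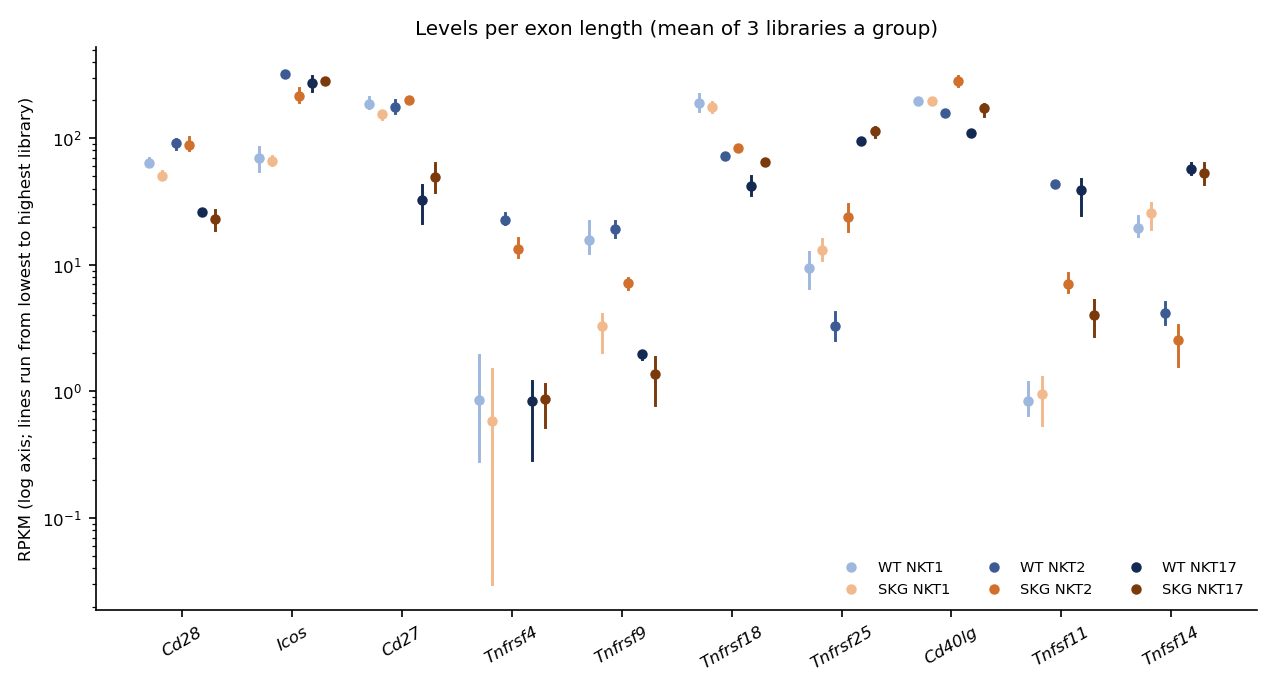
Levels of the 10 genes in RPKM (CPM per kilobase of exon, log axis) in each group, with points for the mean of 3 libraries and lines from the lowest to the highest library. Icos, Cd27, Cd40lg, Tnfrsf18 and Tnfrsf25 have a mean over 100 RPKM in some group, while Tnfrsf4 stays under 2 RPKM in each library outside NKT2. The 1 library without a Tnfrsf4 read (SKG NKT1) is drawn at the foot of its line.

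The first question is how the 3 subsets of WT mice differ in these genes. Each subset had its own set. NKT2 cells had the highest Cd28 and were alone in having more than 3 CPM of Tnfrsf4, NKT1 cells had the highest Tnfrsf18, and NKT17 cells had the highest Tnfrsf25 and Tnfsf14 with the lowest Cd28, Cd27, Tnfrsf9 and Cd40lg. Tnfsf11 was high in NKT2 and NKT17 and near 2 CPM in NKT1. Between WT NKT1 and NKT17, 9 of 10 members were called, 5 higher in NKT1 (Cd28, Cd27, Tnfrsf9, Tnfrsf18 and Cd40lg) and 4 lower (Icos, Tnfrsf25, Tnfsf11 and Tnfsf14), against 24.7% of all genes tested (11.2% higher and 13.5% lower). Between WT NKT17 and NKT2, 7 of 10 were called, 2 higher in NKT17 (Tnfrsf25 and Tnfsf14) and 5 lower (Cd28, Cd27, Tnfrsf4, Tnfrsf9 and Tnfrsf18), against 20% of all genes (11% and 8.97%). Between WT NKT1 and NKT2, 6 of 10 were called, 3 higher in NKT1 (Tnfrsf18, Tnfrsf25 and Tnfsf14) and 3 lower (Icos, Tnfrsf4 and Tnfsf11), against 27.5% of all genes (13.7% in each direction). The median absolute log2 fold change of the members was 2.07, 2.12 and 1.48 in these 3 comparisons, beside 0.35, 0.33 and 0.41 over all genes tested. These counts and medians include Icos, whose protein was part of the gate, so its calls against NKT1 describe the sort.

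**Figure D2:**
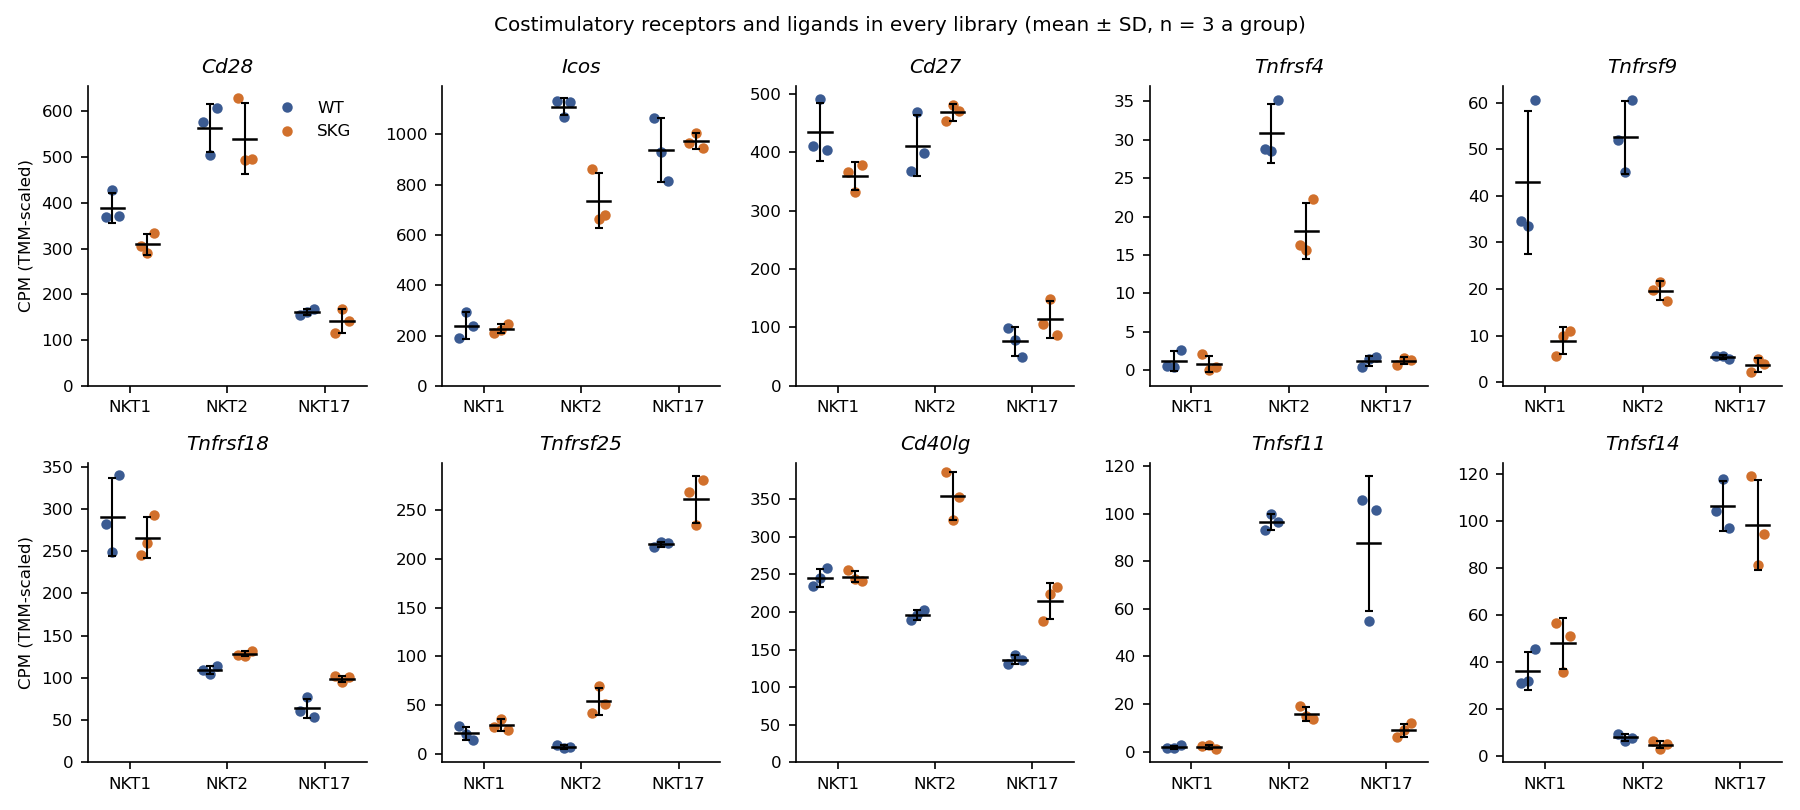
CPM (TMM-scaled, linear axes from 0 or just below) of the 10 genes in each of the 18 libraries, by subset and genotype, with the mean and SD of each group of 3 in black. The SKG libraries lie below the WT libraries for Tnfsf11 in NKT2 and NKT17 and for Tnfrsf9 in NKT1 and NKT2, and above them for Tnfrsf25 in NKT2 and Cd40lg in NKT2 and NKT17.

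Cd28, the receptor of CD80 and CD86, followed the subsets and was called in no comparison of the genotypes. In WT NKT2 it was at 576, 504.5 and 607 CPM, in WT NKT1 at 369.9, 428 and 370.2 CPM and in WT NKT17 at 155, 161 and 168 CPM, so that the subsets did not overlap. It was 3.49-fold lower in NKT17 than in NKT2 (log2 change -1.80 ± 0.13 (SE), adjusted p = 3.1e-10 in edgeR). The SKG levels were 540.0 ± 77.5 CPM in NKT2, 309.6 ± 23.0 in NKT1 and 141 ± 26.0 in NKT17, in the same order. In NKT1 the 3 SKG libraries (305, 289 and 335 CPM) lay below the 3 WT libraries, but the difference was not called (log2 change -0.33 ± 0.12 (SE), adjusted p = 0.205 in edgeR).

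Icos encodes the receptor of ICOS ligand. It was at 1129.9, 1069.9 and 1128 CPM in WT NKT2, 1065, 930.0 and 812 CPM in WT NKT17 and 189, 293 and 237 CPM in WT NKT1, the subset gated as ICOS-lo. Within NKT2, gated as ICOS-hi in both genotypes, SKG libraries held 861, 665 and 681 CPM, all below WT. The SKG level was 1.51-fold lower (log2 change -0.59 ± 0.13 (SE), adjusted p = 0.00493 in edgeR). This fold stands at the minimum for a call, and the call was lost without WT NKT2 library 1 (log2 fold change -0.58) or 3 (-0.58) and without SKG NKT2 library 2 (-0.52) or 3 (-0.54), as well as in a fit of the 6 NKT2 libraries alone (-0.58). In NKT1 and NKT17, the genotypes overlapped.

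Cd27, the receptor of CD70, was high in NKT1 and NKT2 and low in NKT17. WT NKT1 held 409.8, 491 and 403 CPM, WT NKT2 367, 469 and 398 CPM and WT NKT17 99.6, 78.8 and 49.7 CPM. NKT1 and NKT2 overlapped, and NKT17 lay below both, 5.43-fold below NKT2 (log2 change -2.44 ± 0.21 (SE), adjusted p = 7.72e-08 in edgeR). In SKG NKT17, Cd27 was at 105, 149 and 87.5 CPM, and 1 of these 3 libraries lay within the range of WT NKT17. The difference was called (log2 change 0.59 ± 0.20 (SE), adjusted p = 0.0869 in edgeR) but rests on single libraries: without WT NKT17 library 3 the adjusted p was 0.24 and without SKG NKT17 library 2 it was 0.311 in the same edgeR test, and the call was lost in 10 of 15 alternatives.

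Tnfrsf4, which encodes the receptor of OX40 ligand, was found mostly in NKT2. The 3 WT NKT2 libraries held 28.8, 28.5 and 35.2 CPM (141, 163 and 218 counts) and the 3 SKG NKT2 libraries 16.3, 15.7 and 22.3 CPM (74, 80 and 139 counts). Every library of NKT1 and NKT17 had at most 2.66 CPM, from 0 to 15 counts, and the SKG NKT1 library with no read allows up to 0.625 CPM, a floor of 3 counts that covers counting error only. In WT, Tnfrsf4 was 26.7-fold lower in NKT1 than in NKT2 (log2 change -4.74 ± 0.65 (SE), adjusted p = 5.91e-06 in edgeR). WT NKT1 library 3 held 15 counts, against 4 and 2 in the other libraries of that group, and without it the log2 change was -6.07. Tnfrsf4 was 25.7-fold lower in NKT17 than in NKT2 (log2 change -4.68 ± 0.64 (SE), adjusted p = 8.86e-06 in edgeR). The SKG NKT2 libraries lay below the WT NKT2 libraries, yet the difference was not called (log2 change -0.77 ± 0.51 (SE), adjusted p = 0.428 in edgeR).

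Tnfrsf9 encodes 4-1BB, a receptor induced after T cell activation. In WT it was at 51.9, 45.1 and 60.6 CPM in NKT2, 34.6, 33.4 and 60.6 CPM in NKT1 and 5.66, 5.56 and 4.94 CPM in NKT17. NKT1 and NKT2 overlapped and NKT17 lay below both. In SKG NKT1, Tnfrsf9 was at 5.57, 10.00 and 11.1 CPM, below each WT NKT1 library, which makes it 4.81-fold lower (log2 change -2.27 ± 0.30 (SE), adjusted p = 8.69e-05 in edgeR). In SKG NKT2 it was at 19.8, 21.5 and 17.5 CPM, again below each WT library, 2.68-fold lower (log2 change -1.42 ± 0.28 (SE), adjusted p = 0.00167 in edgeR). In NKT17, where WT had little of it, the SKG libraries (2.12, 5.06 and 3.94 CPM, 15 to 29 counts) overlapped those of WT (log2 change -0.55 ± 0.34 (SE), adjusted p = 0.38 in edgeR). Of the 7 receptors, Tnfrsf9 was the one called lower in more than 1 subset.

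Tnfrsf18, which encodes GITR, was highest in NKT1, with 282, 249 and 341 CPM in WT NKT1, 109, 105 and 114 CPM in WT NKT2 and 61.1, 76.9 and 54.4 CPM in WT NKT17. The 3 subsets did not overlap, and NKT1 was 4.53-fold above NKT17 (log2 change 2.18 ± 0.13 (SE), adjusted p = 9.46e-12 in edgeR). SKG NKT17 libraries held 102, 95.1 and 101 CPM, all above WT NKT17, 1.55-fold higher (log2 change 0.63 ± 0.13 (SE), adjusted p = 0.00233 in edgeR). The fold fell under 1.5 without WT NKT17 library 3 (log2 fold change 0.53). In NKT2, the SKG libraries (128, 126 and 132 CPM) also lay above those of WT, with no call (log2 change 0.23 ± 0.13 (SE), adjusted p = 0.31 in edgeR).

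Tnfrsf25 encodes DR3, the receptor of TL1A. In WT, Tnfrsf25 was highest in NKT17, as Tnfsf14 was. It was at 212, 217 and 216 CPM in NKT17 against 28.5, 20.8 and 14.9 CPM in NKT1 and 9.61, 5.77 and 6.95 CPM in NKT2. NKT17 was 29.0-fold above NKT2 (log2 change 4.86 ± 0.24 (SE), adjusted p = 3.57e-12 in edgeR). The 3 SKG NKT2 libraries held 41.8, 69.3 and 51.4 CPM, each above every WT NKT2 library, and SKG NKT2 was 7.33-fold higher than WT NKT2 (log2 change 2.87 ± 0.24 (SE), adjusted p = 4.24e-08 in edgeR). This was the largest rise among the 10 members in any comparison of SKG with WT. In NKT17 the SKG libraries (268, 234 and 280.2 CPM) lay above those of WT by 1.21-fold and were not called (log2 change 0.28 ± 0.19 (SE), adjusted p = 0.449 in edgeR), and in NKT1 the genotypes overlapped.

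The rise of Tnfrsf25 in SKG NKT2 was set beside the markers of NKT17 cells, the subset with the most Tnfrsf25. In SKG, the NKT2 mean of Tnfrsf25 was 20.8% of the NKT17 mean, and in WT 3.46%. The 5 NKT17 markers read here (Il23r, Sdc1, Ccr6, Il1r1 and Il17re) were at 0.0925% to 0.282% of their SKG NKT17 level in SKG NKT2, and at 0.0547% to 1.90% of their WT NKT17 level in WT NKT2. The NKT17 levels taken as the base differed between the genotypes, with Ccr6 at 12.0 CPM in WT and 592 CPM in SKG. Il1r1 was at 467 and 233 CPM, Il23r at 454 and 245 CPM and Il17re at 215 and 245 CPM. The 1.90% was that of Ccr6, at 0.229 CPM in WT NKT2. In SKG NKT2, Il23r, Il1r1, Il17re and Ccr6 had means of 0.507 to 1.09 CPM, near the floor of 3 counts. None of the 5 was at 0 in all 3 SKG NKT2 libraries. These 5 are not the whole marker list, and the part of NKT17 cells in the SKG NKT2 libraries was not tested.

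**Figure D3:**
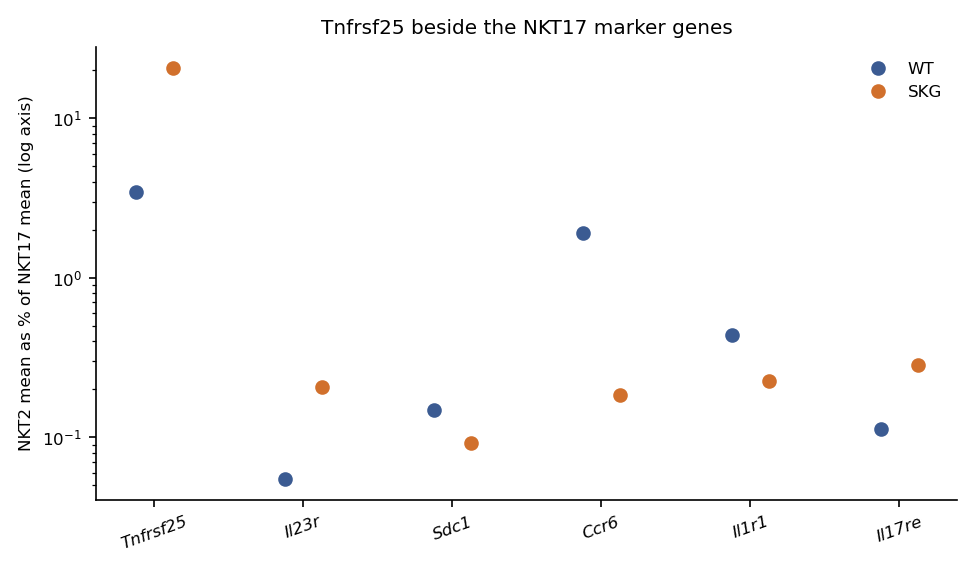
Mean CPM in NKT2 as a percentage of the mean CPM in NKT17 of the same genotype (log axis), for Tnfrsf25 and 5 NKT17 marker genes, in WT and SKG. Tnfrsf25 goes from 3.46% in WT to 20.8% in SKG, while the 5 markers lie between 0.0925% and 0.282% in SKG. The NKT17 means under these percentages differ by genotype, as for Ccr6 with 12.0 CPM in WT and 592 CPM in SKG.

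Cd40lg, the ligand of CD40, was present in all groups and was higher in SKG in 2 of the 3 subsets. In NKT2 the WT libraries held 189, 196 and 203 CPM and the SKG libraries 386, 323 and 353 CPM, a 1.81-fold rise (log2 change 0.85 ± 0.10 (SE), adjusted p = 3.49e-06 in edgeR). In NKT17 the WT libraries held 131, 143 and 136 CPM and the SKG libraries 188, 224 and 233 CPM, a 1.57-fold rise (log2 change 0.65 ± 0.10 (SE), adjusted p = 0.000121 in edgeR). The genotypes did not overlap in either subset. In NKT1 they overlapped, with 245 ± 12.0 CPM in WT and 247 ± 7.34 CPM in SKG (log2 change 0.01 ± 0.10 (SE), adjusted p = 0.994 in edgeR). WT NKT1 had the most Cd40lg among WT subsets, and SKG NKT2 had the most among all 6 groups.

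Tnfsf11, which encodes RANKL, had the largest fall of the 10 members. WT NKT2 held 93.0, 99.8 and 96.7 CPM and WT NKT17 106, 54.9 and 102 CPM, whereas WT NKT1 held 1.45, 1.53 and 2.66 CPM (8 to 15 counts). The WT NKT2 and NKT17 libraries overlapped and lay above every NKT1 library, and NKT1 was 51.7-fold below NKT2 (log2 change -5.69 ± 0.33 (SE), adjusted p = 9.58e-12 in edgeR). SKG NKT2 held 19.2, 14.9 and 13.6 CPM, 6.09-fold lower than WT NKT2 (log2 change -2.61 ± 0.27 (SE), adjusted p = 5.8e-07 in edgeR). SKG NKT17 held 6.09, 8.9 and 11.8 CPM, 9.86-fold lower than WT NKT17 (log2 change -3.30 ± 0.28 (SE), adjusted p = 5.33e-08 in edgeR). Each SKG library of these subsets lay below each WT library. In NKT1, SKG libraries (2.23, 2.92 and 1.21 CPM, 7 to 14 counts) overlapped those of WT, and counts this low limit what could be detected there.

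Sox13 is a transcription factor gene of γδ T cells and the only one of 4 listed γδ T cell markers in the table. Like Tnfsf11, it was lower in SKG than in WT in NKT2 and NKT17. The level of Sox13 was 104 to 181 CPM in WT NKT2 and 4.18 to 7.71 CPM in SKG NKT2. In NKT17 it was 276 to 344 CPM in WT and 85.0 to 134 CPM in SKG. In NKT1 it was 0.764 to 3.72 CPM in WT and 0 to 0.693 CPM in SKG, without overlap, whereas Tnfsf11 overlapped there. The sort kept cells that bound the CD1d tetramer, and in NKT2 cells with high TCRβ. The part of other cells that carry both transcripts was not tested.

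Tnfsf14, which encodes LIGHT, was highest in NKT17. WT NKT17 held 104, 118 and 97.0 CPM, WT NKT1 31.1, 31.7 and 45.3 CPM and WT NKT2 9.40, 6.29 and 7.60 CPM, with no overlap. NKT17 was 13.7-fold above NKT2 (log2 change 3.78 ± 0.25 (SE), adjusted p = 7.23e-11 in edgeR) and NKT1 4.65-fold above it (log2 change 2.22 ± 0.24 (SE), adjusted p = 2.11e-07 in edgeR). The SKG libraries kept this order, with 98.1 ± 19.3 CPM in NKT17, 47.8 ± 10.9 in NKT1 and 4.75 ± 1.65 in NKT2. In NKT2 the SKG libraries (6.17, 2.94 and 5.14 CPM) lay below those of WT without a call (log2 change -0.71 ± 0.28 (SE), adjusted p = 0.141 in edgeR).

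The second question is what the SKG allele changes within each subset. In NKT1, 1 of 10 members was called, Tnfrsf9, which fell, against 3.27% of all genes tested (1.46% higher and 1.82% lower). In NKT2, 5 of 10 were called, with Tnfrsf25 and Cd40lg higher and Icos, Tnfrsf9 and Tnfsf11 lower, against 7.95% of all genes (3.9% higher and 4.05% lower). In NKT17, 4 of 10 were called, with Cd27, Tnfrsf18 and Cd40lg higher and Tnfsf11 lower, against 8.37% of all genes (3.83% higher and 4.54% lower). Cd28, Tnfrsf4 and Tnfsf14 were called in no subset. The libraries of the genotypes did not overlap for 3 members in NKT1 (16.3% of all genes), 8 in NKT2 (30.1%) and 4 in NKT17 (26.9%). The median absolute log2 fold change of the 10 genes came to 0.30 in NKT1, 0.74 in NKT2 and 0.42 in NKT17, beside 0.21, 0.25 and 0.25 over all genes. Without WT NKT1 library 1, 2 members were called in NKT1, and without WT NKT17 library 3, 2 were called in NKT17. Receptors and ligands both had members that rose and members that fell.

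**Figure D4:**
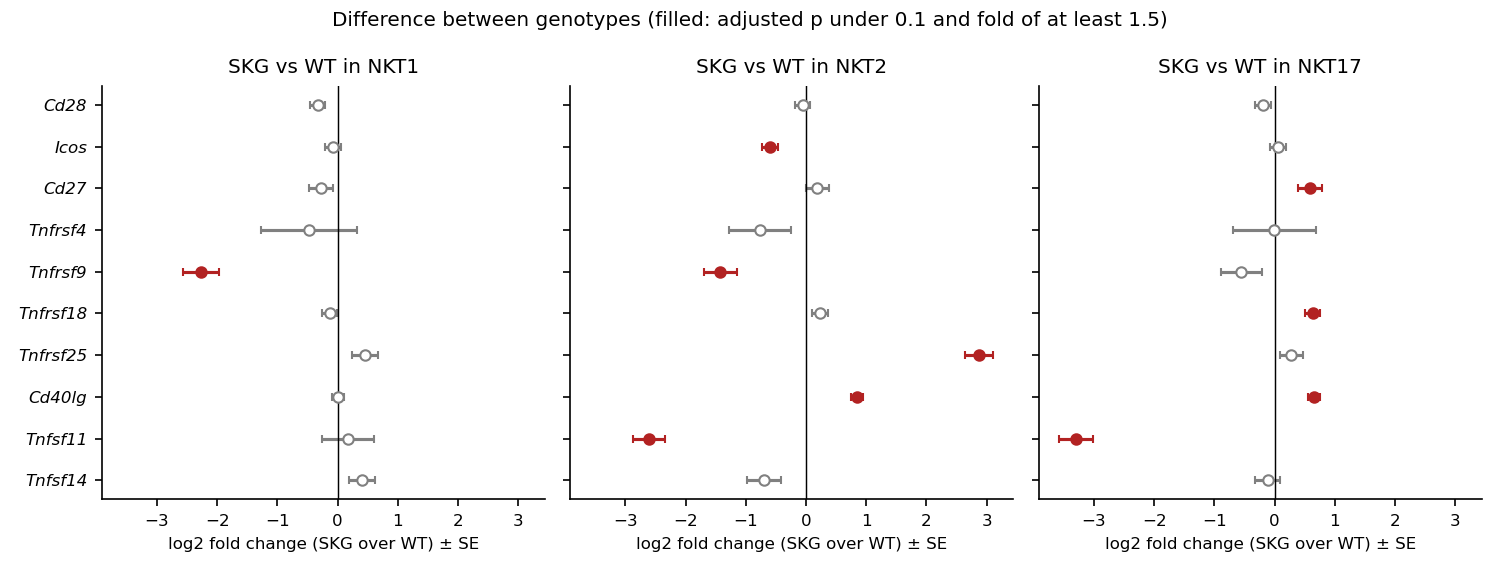
Log2 fold change of SKG over WT with its SE for the 10 genes in NKT1, NKT2 and NKT17, filled red where the adjusted p was under 0.1 and the fold at least 1.5. Tnfrsf9 alone is filled in NKT1, 5 genes are filled in NKT2 and 4 in NKT17.

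Markers of other cells were read beside these calls. Of 7 markers of double-positive thymocytes, 4 were at 0 in all SKG NKT17 libraries, and their summed level was 14.3 to 47.5 CPM in SKG NKT17 and 5.27 to 12.5 CPM in WT NKT17, most of it from Cd8b1. Of 6 markers of regulatory T cells, which are known for Tnfrsf4 and Tnfrsf18, Lrrc32 was at 0 in all libraries and Foxp3 had a mean of at most 0.443 CPM in any group. The summed level of the 6 was 201 to 217 CPM in SKG NKT17 and 132 to 191 CPM in WT NKT17, carried by Il2ra and Ikzf2. In NKT2 it was 32.1 to 57.2 CPM in SKG and 50.6 to 76.2 CPM in WT, where Il2ra was called higher and Ikzf2 lower in SKG. In NKT1, where Tnfrsf9 fell, the sum was 20.4 to 26.7 CPM in SKG and 57.7 to 72.0 CPM in WT, and Il2ra and Ikzf2 were both called lower in SKG. The 6 NKT2 markers summed to 807 to 929 CPM in SKG NKT17 and 613 to 799 CPM in WT NKT17 without overlap, and of these Ccr7 and Il17rb were called higher and Il4 lower in SKG. Of 6 B cell markers, Cd79b was called higher in SKG NKT17, at 34.6 ± 8.67 CPM against 9.20 ± 1.44 CPM, Blk was called lower, and Pax5 was at 0 in all libraries. All libraries came from cells gated on the CD1d tetramer. The part of the other cell types read here in the SKG differences of Tnfrsf9, Cd27, Tnfrsf18 and Cd40lg was not tested.

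The third question is whether the effect of the SKG allele differs between subsets, tested as an interaction. Between NKT2 and NKT1, 3 of 10 members were called (3.87% of all genes): Tnfrsf25, whose rise in NKT2 exceeded the change in NKT1 (log2 change 2.41 ± 0.32 (SE), adjusted p = 8.56e-05 in edgeR), Cd40lg (log2 change 0.85 ± 0.14 (SE), adjusted p = 0.000892 in edgeR) and Tnfsf11 (log2 change -2.78 ± 0.51 (SE), adjusted p = 0.00218 in edgeR). Between NKT17 and NKT1, 4 were called (4.17% of all genes): Tnfsf11 (log2 change -3.48 ± 0.52 (SE), adjusted p = 0.000266 in edgeR), Cd40lg (log2 change 0.64 ± 0.14 (SE), adjusted p = 0.0125 in edgeR), Tnfrsf18 (log2 change 0.76 ± 0.18 (SE), adjusted p = 0.022 in edgeR) and Tnfrsf9, whose fall in NKT1 exceeded the change in NKT17 (log2 change 1.71 ± 0.45 (SE), adjusted p = 0.043 in edgeR). Between NKT17 and NKT2, 2 were called (2.19% of all genes): Tnfrsf25, whose rise in NKT2 exceeded the change in NKT17 (log2 change -2.59 ± 0.31 (SE), adjusted p = 6.04e-05 in edgeR), and Icos (log2 change 0.65 ± 0.19 (SE), adjusted p = 0.0971 in edgeR). Without SKG NKT2 library 1, 5 members were called between NKT2 and NKT1. The call of Icos was lost without any 1 of 10 of the 12 libraries, with adjusted p from 0.133 to 0.234 in edgeR. That of Tnfrsf9 was lost without SKG NKT1 library 1 or SKG NKT17 library 2 or 3 (edgeR adjusted p 0.111 to 0.147), and that of Cd40lg between NKT17 and NKT1 without WT NKT17 library 1 or SKG NKT17 library 3, where the fold fell under 1.5. For Tnfsf11 and Cd40lg, the SKG effects in NKT17 and NKT2 were not called different, with a log2 difference of -0.70 (SE 0.37) for Tnfsf11 and -0.20 (SE 0.14) for Cd40lg. For Tnfrsf9, the falls in NKT1 and NKT2 differed by 0.84 on the log2 scale without a call (edgeR adjusted p = 0.348). The interactions of Tnfsf11 with NKT1 rest on an NKT1 level of 1.21 to 2.92 CPM over the libraries of both genotypes.

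Seen within each genotype, most differences between subsets kept their direction. In SKG, 8 of 10 members were called between NKT1 and NKT2 (18.7% of all genes), 8 between NKT1 and NKT17 (22.8%) and 8 between NKT17 and NKT2 (18.8%). As in WT, the counts against NKT1 include Icos, whose calls there describe the sort. WT and SKG share no library, and the direction was the same in both genotypes for 10 members between NKT1 and NKT17, 9 between NKT17 and NKT2 and 7 between NKT1 and NKT2. The share of all genes with the same direction was not computed. The 10 include Icos, whose protein was part of the gate, and Tnfrsf4, uncalled in both genotypes (log2 change -0.06 in WT and -0.53 in SKG). The 1 member called in both genotypes with opposite directions was Tnfrsf25 between NKT1 and NKT2. It was 2.92-fold higher in NKT1 in WT (log2 change 1.55 ± 0.24 (SE), adjusted p = 3.31e-05 in edgeR) and 1.83-fold lower in NKT1 in SKG (log2 change -0.87 ± 0.21 (SE), adjusted p = 0.0041 in edgeR). Cd40lg also changed direction there, with folds under the minimum for a call. Its log2 change was 0.33 in WT (edgeR adjusted p = 0.0147) and -0.52 in SKG (edgeR adjusted p = 0.000416). Cd27 went from 0.08 in WT to -0.38 in SKG, uncalled in both. Tnfrsf9, which overlapped between WT NKT1 and NKT2, was 2.20-fold lower in NKT1 in SKG (log2 change -1.14 ± 0.30 (SE), adjusted p = 0.00738 in edgeR). The difference in Tnfsf11 between NKT1 and NKT2 went from 51.7-fold in WT to 7.53-fold in SKG. Between SKG NKT17 and NKT2, Tnfsf11 was called lower in NKT17 (log2 change -0.84 ± 0.28 (SE), adjusted p = 0.0359 in edgeR), a call that was lost without SKG NKT2 library 1 (edgeR adjusted p = 0.155) or SKG NKT17 library 1 (0.196). Between NKT17 and NKT2, Tnfrsf25 went from 29.0-fold in WT to 4.81-fold in SKG.

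**Figure D5:**
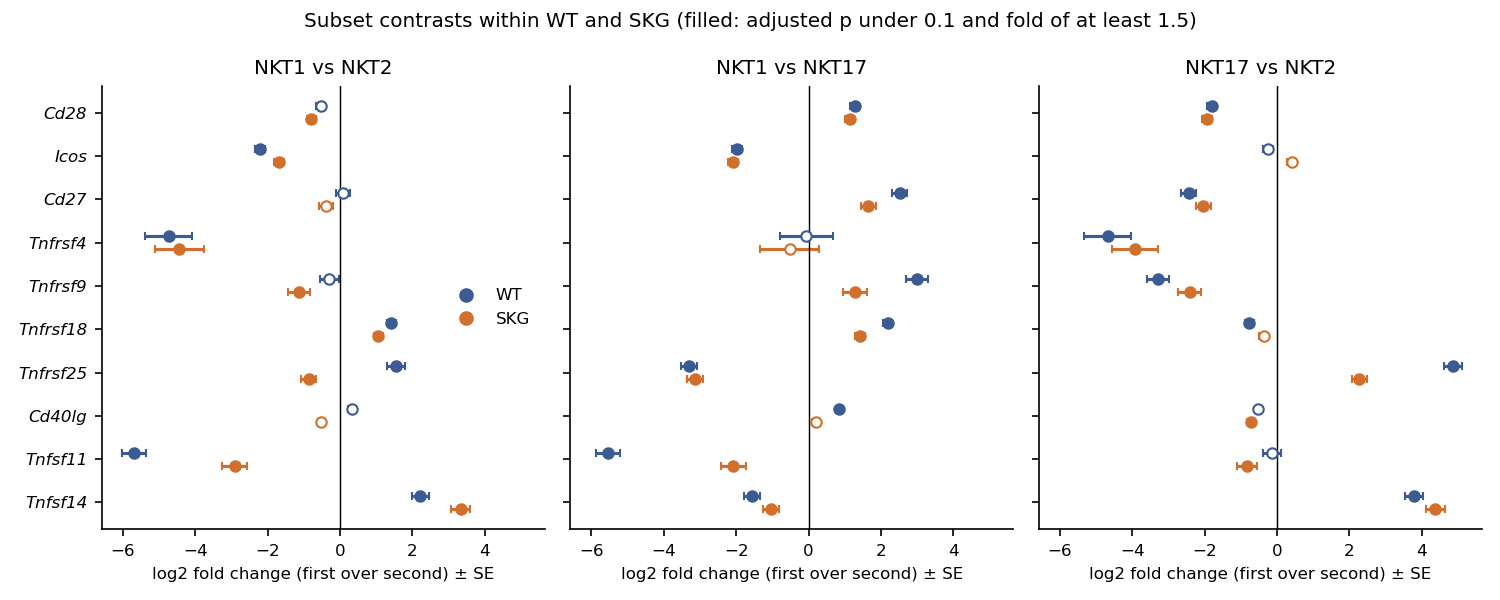
Log2 fold changes with SE between subsets (first subset over second) for the 10 genes, in WT (blue) and SKG (orange), filled where called. Between NKT1 and NKT2, Tnfrsf25 lies on opposite sides of 0 in WT and SKG, filled in both, as do Cd40lg and Cd27, unfilled in both. Tnfsf11 lies nearer to 0 in SKG than in WT in both comparisons with NKT1.

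The binding partners of the members were a list of 13 genes, of which 7 were tested (Cd86, Icosl, Tnfsf4, Tnfsf9, Cd40, Tnfrsf14 and Ltbr). The other 6 (Cd80, Cd70, Tnfsf18, Tnfsf15, Tnfrsf11a and Tnfrsf11b) had a mean of at most 0.387 CPM in any group. These 6 include both receptors of RANKL (RANK and osteoprotegerin), the ligand of DR3 (TL1A) and the ligand of CD27 (CD70). In NKT2, 3 of the 7 partners were called between SKG and WT, beside 7.95% of all genes. Tnfsf4, which encodes OX40 ligand, fell from 18.7 ± 3.23 CPM in WT to 5.69 ± 0.210 CPM in SKG (log2 change -1.72 ± 0.38 (SE), adjusted p = 0.00496 in edgeR). Cd40, the receptor of CD40 ligand, fell from 18.5 ± 5.41 to 2.23 ± 1.35 CPM (log2 change -3.06 ± 0.60 (SE), adjusted p = 0.00149 in edgeR), while Cd40lg rose between the same libraries. Cd86, a ligand of CD28, rose from 0.170 ± 0.175 to 5.76 ± 2.64 CPM (log2 change 4.87 ± 1.26 (SE), adjusted p = 0.0202 in edgeR). In NKT17, 2 of the 7 were called, 1 in each direction, and in NKT1, 0 were called by edgeR and 1 by DESeq2, with 3 at an unadjusted p under 0.05.

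Among 22 other TNF superfamily genes, 17 were tested. In NKT2, 5 were higher and 1, Tnfrsf21, lower in SKG, beside 3.9% higher and 4.05% lower over all genes. In NKT17, 4 were higher and 1, again Tnfrsf21, lower, beside 3.83% and 4.54%. In NKT1, 2 were higher, beside 1.46% of all genes, both with a mean of at most 1.75 CPM. Fasl, the ligand of the death receptor Fas, rose from 13.9 ± 3.39 to 94.2 ± 24.6 CPM in NKT2 (log2 change 2.75 ± 0.19 (SE), adjusted p = 2.69e-09 in edgeR) and from 2.36 ± 0.232 to 10.7 ± 0.956 CPM in NKT17 (log2 change 2.17 ± 0.26 (SE), adjusted p = 7.98e-06 in edgeR). Lta and Ltb, which encode the lymphotoxin subunits, rose in NKT2, Lta from 21.6 ± 4.43 to 76.2 ± 9.09 CPM and Ltb from 519 ± 82.7 to 1255 ± 144 CPM. Of the TNF family ligands called in SKG NKT2 among the members and these lists, Tnfsf11 and Tnfsf4 were lower, and Cd40lg, Fasl, Lta, Ltb and Tnf were higher. Of 5 tested inhibitory genes of the CD28 and B7 families, Pdcd1, which encodes PD-1, was called, and it fell in all 3 subsets, from 584 ± 78.2 to 92.1 ± 7.50 CPM in NKT2.

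The relays behind the receptors were read as lists too. Of 24 TRAF and NF-κB genes, 6 were higher and 1 lower in SKG NKT2 (3.9% and 4.05% of all genes), with a median log2 fold change of 0.32 beside -0.00363 over all genes. Among them were Nfkb2 (log2 change 0.80 ± 0.13 (SE), adjusted p = 0.00033 in edgeR), Relb (log2 change 0.81 ± 0.13 (SE), adjusted p = 0.000153 in edgeR) and Nfkbia (log2 change 0.75 ± 0.15 (SE), adjusted p = 0.00236 in edgeR), the first 2 encoding subunits of the non-canonical NF-κB pathway and the last an inhibitor of NF-κB. In SKG NKT1, Relb was the only one of the 24 called and fell (log2 change -0.68 ± 0.13 (SE), adjusted p = 0.00265 in edgeR). In SKG NKT17, Nfkb2 rose (log2 change 0.74 ± 0.13 (SE), adjusted p = 0.000661 in edgeR) and Traf5, an adaptor of TNF receptor family members, fell (log2 change -0.99 ± 0.26 (SE), adjusted p = 0.0166 in edgeR). The counts in NKT1 and NKT17 (1 and 2 of 24) are near the share of all genes called (3.27% and 8.37%). Of 24 genes of the PI3K and CD28 or ICOS relay, 2 were higher in SKG NKT2 (Pik3r5 and Malt1), 2 higher in SKG NKT17 (Pik3r5 and Pik3ip1), and in SKG NKT1, Pik3cd and Pik3ip1 were higher and Tec lower. In NKT2 and NKT17, these counts are near the share of all genes called (7.95% and 8.37%). In NKT1, 3 of the 24 were called, beside 3.27% of all genes. The median log2 fold change of this list in NKT2 was 0.29, beside -0.00363 over all genes. Of 3 genes of RNA-binding proteins that degrade costimulator transcripts, Zc3h12a was higher in SKG NKT2, at 14.3 ± 2.22 CPM against 7.15 ± 0.706 CPM (log2 change 1.00 ± 0.29 (SE), adjusted p = 0.0349 in edgeR), and Rc3h1 and Rc3h2 were not called in SKG against WT in any subset.

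The genes most alike to each member were sought by the Pearson correlation of log2 CPM over the 18 libraries, which share the 6 groups as their main source of spread. Tnfsf11 was most like Myb (r = 0.948), 5430417L22Rik (0.945) and Ung (0.941). Tnfrsf25 was most like Mif4gd (0.970), Bik (0.969) and Abhd15 (0.959). Tnfrsf9 was most like Gtf2i (0.928), Pls1 (0.921) and Ifi27l2a (0.906), and Tnfrsf4 most like Bzw2 (0.927), Prkcsh (0.923) and Cd81 (0.922). Gtf2i also stood among the 3 genes most like Cd28, with Ssbp2 (0.969), Gtf2i (0.959) and Rbm38 (0.957). Cd40lg was most like Dgka (0.944), Grap (0.939) and Tspan13 (0.915), and Icos most like Snap47 (0.976), Clstn3 (0.968) and Tcf7 (0.967). Tnfrsf18 was most like AW112010 (0.988), Sytl2 (0.979) and B4galnt1 (0.975), Cd27 most like Cdyl2 (0.965), Ugcg (0.947) and Prkch (0.944), and Tnfsf14 most like Cd226 (0.958), Dock5 (0.944) and Sesn1 (0.943). These are descriptions over 18 libraries, and no member was among the 3 genes most like another member. Tnfrsf4 could not be, since its mean lay under the 20 CPM asked of the genes searched.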

How the data were processed

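RNA-seq of 3 sorted thymic iNKT subsets in both genotypes was read from 1 table of counts, deposited by the authors as whole reads per gene symbol without normalisation. Per the methods of the study, full-length cDNA was made from polyadenylated RNA and tagmented with Tn5, the libraries were sequenced as single-end reads of 50 bases, aligned with TopHat to mm9 and counted with htseq-count. The submitters' processing notes name Bowtie 1.0.0, TopHat 1.4.1, HTSeq 0.7.1 and the builds mm10 and hg19, so the sources differ on the build. The annotation and the strand setting are not given in the sources used here. The reads carried no molecular identifiers, so PCR copies count as reads. The table also has 2 columns of no listed sample, which were used in no step.

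Samples were grouped by their labels into 6 groups of 3 libraries, and libraries of 1 group differed by more than sampling noise (chi-square per degree of freedom 5.47 to 24.4). Genes were kept by filterByExpr (11118 of 15582), scaled by TMM (factors 0.928 to 1.07) and fitted with the robust quasi-likelihood model of edgeR 4.0.16 in R 4.3.3 over all 18 libraries (12 residual degrees of freedom, common biological coefficient of variation 21.1%). Tests were two-sided and p-values were adjusted by the Benjamini-Hochberg method over all genes tested in a comparison. The thresholds, an adjusted p under 0.1 and a fold change of at least 1.5, are those of the study. The SE was derived from the F statistic, as the size of the log2 fold change over the root of F. RPKM is CPM per kilobase of annotated exon (GENCODE M1, NCBIM37, joined by symbol). The pipeline was tested on simulated counts.

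The members and the lists of partners, pathway genes and markers were chosen with earlier results of these data known. From each list other than the members, up to 3 called genes a comparison are named by smallest adjusted p, among those with a mean of at least 5 CPM in the higher group, and Tnf, Tnfrsf21 and the genes that the text names as untested or at 0 were added after their values were seen. For each member, the 3 genes with the highest correlation of log2 CPM (prior count 2) among genes with a mean of at least 20 CPM are named as most alike. The other marker lists (NKT2 cells, B cells, myeloid cells, thymic epithelium and red cells) are given in the closing section. In the NKT17 and B cell lists, 1 marker each is not reported here and entered no sum. Alternatives were each library left out in turn, a replicate block taken from the title numbers, fits restricted to the groups of a comparison, calls at an adjusted p under 0.05 or without the fold minimum, a filter at a mean of 50 counts or none, scaling by upper quartile or RLE, and DESeq2 1.42.0. The title numbers paired the libraries only between WT NKT17 and WT NKT2, where the deviations from the group mean correlated at over 0.1 in all 3 pairs (r = 0.219 to 0.351). In the comparisons of SKG subsets all pairs were positive but some lay under 0.1 (r = 0.0514 to 0.214), and nothing in the labels says what the number stands for.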

Additional observations from a re-analysis of the deposited data

Results flagged for a closer look

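The SKG effect differed between subsets, by the test of the interaction in edgeR, for 9 combinations of a member and a pair of subsets. Tnfrsf25 rose in NKT2 beyond the uncalled changes in NKT1 (NKT2 minus NKT1, log2 difference of the SKG effects 2.41, SE 0.32, edgeR adjusted p = 8.56e-05) and NKT17 (NKT17 minus NKT2 -2.59, SE 0.31, adjusted p = 6.04e-05). Tnfsf11 fell in NKT2 and NKT17 beyond the change in NKT1, where its level was low in both genotypes (NKT2 minus NKT1 -2.78, SE 0.51, adjusted p = 0.00218, and NKT17 minus NKT1 -3.48, SE 0.52, adjusted p = 0.000266). Cd40lg rose in NKT2 and NKT17 beyond the change in NKT1 (0.85, SE 0.14, adjusted p = 0.000892, and 0.64, SE 0.14, adjusted p = 0.0125). Tnfrsf18 rose in NKT17 beyond the uncalled change in NKT1 (NKT17 minus NKT1 0.76, SE 0.18, adjusted p = 0.022). Tnfrsf9 fell in NKT1 beyond the uncalled change in NKT17 (NKT17 minus NKT1 1.71, SE 0.45, adjusted p = 0.043). Icos fell in NKT2 beyond the change in NKT17 (NKT17 minus NKT2 0.65, SE 0.19, adjusted p = 0.0971). The causes of these differences were not tested.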

How the results depend on the processing

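Of 120 results (10 members in 12 comparisons), 65 were called and 58 of these kept their call under each alternative run. The 7 others were Icos, Cd27 and Tnfrsf18 between SKG and WT, Tnfsf11 between SKG NKT17 and NKT2, and the interactions of Icos, Tnfrsf9 and Cd40lg. Over 1964 alternative values, 1871 kept their direction and side of the threshold, 36 lost a call, 26 gained one and 31, all uncalled values near 0 or of low counts, changed sign. The number of members called ranged from 1 to 2 without 1 library in NKT1 (SKG against WT), from 2 to 4 in NKT17, from 3 to 5 for the interaction of NKT2 with NKT1 and from 1 to 2 for that of NKT17 with NKT2, which was 1 at an adjusted p under 0.05. With the title number as a replicate block, 2 members were called between SKG and WT in NKT17, where Cd27 and Tnfrsf18 were lost (log2 fold changes 0.67 and 0.58), and the count of members called changed in no other comparison. Under that block Cd40lg in NKT1 turned to -0.034, and under upper-quartile scaling Cd27 between WT NKT1 and NKT2 turned to -0.025. Without 1 library, the log2 fold change ranged, for SKG against WT in NKT1, from -0.22 to 0.12 for Icos, -2.45 to 0.85 for Tnfrsf4, -0.20 to 0.011 for Tnfrsf18, -0.019 to 0.053 for Cd40lg and -0.091 to 0.49 for Tnfsf11. In NKT2 it ranged from -0.18 to 0.0034 for Cd28, and in NKT17 from -0.027 to 0.15 for Icos, -0.38 to 0.37 for Tnfrsf4 and -0.28 to 0.0081 for Tnfsf14. Between subsets it ranged from -0.023 to 0.17 for Cd27 (NKT1 against NKT2 in WT), -1.38 to 0.37 for Tnfrsf4 (NKT1 against NKT17 in WT), -2.50 to 0.019 for Tnfrsf4 (the same in SKG) and -0.29 to 0.11 for Tnfsf11 (NKT17 against NKT2 in WT). For interactions it ranged from -1.62 to 1.70 for Tnfrsf4 (NKT2 minus NKT1), and for NKT17 minus NKT1 from -0.023 to 0.24 for Cd28, -0.072 to 0.27 for Icos, -0.86 to 2.42 for Tnfrsf4 and -0.46 to 0.019 for Tnfrsf25. The causes were not tested beyond the smaller number of libraries. Tnfrsf4 outside NKT2 and Tnfsf11 in NKT1 had 0 to 15 counts a library, and depth limits what can be said of them.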

Other observations

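The remaining marker lists were read as summed CPM over the markers in the lowest and the highest library of any group. The 6 NKT2 markers, among them Cd4, whose protein was part of the NKT2 gate, summed to 1413.8 to 1705 CPM in the NKT2 libraries of both genotypes. In the NKT1 libraries they summed to 325 to 458 CPM. The 8 markers of myeloid and dendritic cells summed to at most 14.9 CPM, the 6 of thymic epithelium to at most 18.0 CPM and the 6 of red cells to at most 1.45 CPM in any library. The 6 markers of B cells summed to at most 8.73 CPM in NKT1 and NKT2, and in NKT17 to 1935 to 2094 CPM in WT and 694 to 996 CPM in SKG. Most of the NKT17 sum was Blk, a Src family kinase gene, with a mean of 2002 CPM in WT and 828 CPM in SKG, and the means of the other 5 markers summed to 9.83 CPM in WT and 35.1 CPM in SKG, most of it Cd79b.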
